A study of Mus musculus with 4 samples.

Results

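A group of squamous-type epithelial cells was picked out of mouse prostate tumours by 6 transcripts of stratified epithelium. A cell barcode was a member when it held at least 3000 unique molecular identifiers (UMIs, each standing for 1 captured transcript), at most 20% of them mitochondrial. It also needed at least 2 UMIs of at least 3 of the genes Krt16, Dmkn, Krt6a, Dsg3, Lypd3 and Krt13, and fewer than 10 UMIs in all of the cell cycle genes Top2a, Mki67, Birc5, Ube2c and Cenpf. This gate found 1056 members among 15930 barcodes that passed the UMI and mitochondrial limits, out of 33061 barcodes in all. The members were thus chosen by measured UMI counts of these 6 marker genes and 5 cell cycle genes in the same cells, so the levels of the 6 genes and of any gene that goes with them are description and carry no test.

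The tumours came from 4 mice, 1 library per mouse. The 2 PSp mice carried a Cre recombinase under the probasin promoter (PB-Cre, active in prostate epithelium), the mutant SpopF133V and a further floxed background that all 4 mice shared. The 2 PCSp mice carried in addition 2 floxed alleles of Chd1 (Chd1L/L), which encodes a chromatin remodeller. All 4 also carried the mTmG reporter, and all were castrated at 9 months of age, with the whole prostate tumour taken 1 month later, so there was no uncastrated group and no group without SpopF133V. Tumours were dissociated and sequenced as 10x Genomics 3' single-cell libraries, which held 66874620 to 90839725 UMIs per mouse.

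Stratified squamous epithelium, as in skin, oesophagus or a healing wound, is built from basal cells that rest on the basement membrane and from suprabasal cells that leave it. Basal cells make the keratin pair Krt5 and Krt14, and cells that leave the basement membrane change their keratins, strengthen their desmosomes and may go on to a cornified envelope. The adult mouse prostate is a glandular epithelium of basal and luminal cells, and squamous features are not part of its usual makeup.

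Of the gate genes, Krt6a and Krt16 encode wound-induced keratins, Krt13 a keratin of non-cornified stratified epithelium, Dmkn a secreted protein of suprabasal layers, Dsg3 a desmosomal cadherin and Lypd3 a surface protein of stratified epithelium. Krt6a lies at chr15:101689910-101694307 and Krt5 at chr15:101707070-101712898, in the same keratin cluster. Krt13, Krt14 and Krt16 lie in the other keratin cluster, with Krt16 at chr11:100246091-100248902, and Dmkn at chr7:30763756-30781063 (all GRCm38). Krt6a reached 2 UMIs in 1015 members, Lypd3 in 763, Dmkn in 709, Dsg3 in 659, Krt16 in 538 and Krt13 in 517, so the gate was met through Krt6a in nearly every member and through varied partners. The 250 bases before the annotated start of 2 of these genes are shown because they hold a match to the AP-1 motif TGANTCA, in capitals. AP-1 is the dimer of Fos and Jun family proteins, whose sites are well known in keratinocyte genes. Both strands were searched.
Dmkn promoter, chr7:30763506-30763755, plus strand: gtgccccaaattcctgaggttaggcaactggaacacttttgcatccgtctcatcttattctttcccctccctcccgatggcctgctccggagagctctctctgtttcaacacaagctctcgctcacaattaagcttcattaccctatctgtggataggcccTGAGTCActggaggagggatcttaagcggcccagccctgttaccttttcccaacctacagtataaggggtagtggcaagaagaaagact
Krt13 promoter, chr11:100121567-100121816, minus strand: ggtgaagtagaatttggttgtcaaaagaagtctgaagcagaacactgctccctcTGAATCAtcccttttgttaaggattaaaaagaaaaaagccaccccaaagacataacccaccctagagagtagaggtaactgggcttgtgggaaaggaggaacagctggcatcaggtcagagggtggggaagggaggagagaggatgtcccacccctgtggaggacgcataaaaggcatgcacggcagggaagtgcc
Promoters were available for 3 of the 6 gate genes in the RefSeq table (GRCm38.p6), and 2 of these 3 held the motif on either strand, against 7.82% of the 27025 genes with a promoter there. Of the 25 genes outside the gate with the highest ratio of members to other epithelial cells, named below, 16 had a promoter there. The motif was in 1 of these 16 (6.25%), so the larger set did not exceed the share over all genes. A match is a run of letters and no evidence of binding.

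The label was checked against 12 squamous genes that the gate did not use. All 12 were higher in members than in the other epithelial cells of the same mouse in 4 of 4 mice, and 11 of them were higher than in basal-gate cells in 4 of 4 mice, with involucrin (Ivl) the exception. The other epithelial cells were those that met a basal gate (Krt5, Krt14, Krt15, Col17a1, Trp63, Itga6) or a luminal gate (Krt8, Krt18, Krt19, Epcam, Cldn3, Cldn4) at 3 genes. Levels are given in CPM, a gene's summed UMIs in the members of a mouse divided by all their UMIs and scaled in the usual way, in the order PSp mouse 1 and 2, PCSp mouse 1 and 2. Among the 12, Krt17 was at 489, 642, 538 and 699 CPM, the surface protein gene Ly6d at 2097, 2182, 1840 and 2745 CPM and Krt6b at 1.19 to 5.86 CPM. Ivl, a precursor of the cornified envelope, was at 15.6 to 29.9 CPM, highest in PCSp mouse 2. Krtdap, a secreted protein of differentiating keratinocytes, was at 1.02 to 17.1 CPM, highest in PSp mouse 1. The late genes of skin were low or near 0. Krt1 was at 3.06 CPM or more in each mouse and close to its mean of 4.07 CPM in other epithelial cells, filaggrin (Flg) was at 0 to 6.13 CPM, and Krt2 was at 0.105 to 0.194 CPM. Markers of stratified epithelium were thus present in the members of all 4 mice, with little of the cornifying keratins.

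Most members expressed genes of both the basal and the luminal gate. Of the 1056 members, 1053 met at least 3 luminal gate genes, 912 met at least 3 basal gate genes, and 909 (86.1%) met both. These counts are at full depth and are given for members only. Basal-gate cells could meet the luminal gate too, so the counts do not set members apart from them. Of the members, 60 had a doublet score in the highest range of their library, and the part of doublets in these joint counts was not tested. Krt5 stood at 1116, 957, 1069 and 1159 CPM in members, against a mean of 765 CPM in basal-gate cells and 11.8 CPM in luminal-gate cells. Krt14 stood at 741 to 918 CPM, below its mean of 1019 CPM in basal-gate cells. Krt15 stood at 4092 to 5192 CPM, above its mean of 3047 CPM there. Trp63, the transcription factor of basal cells, was at 29.0 to 33.9 CPM in members and at a mean of 46.7 CPM in basal-gate cells. The luminal keratin Krt8 was at 1688 to 2325 CPM in members and at a mean of 3044 CPM in luminal-gate cells. With every cell thinned to 3000 UMIs, Krt8 was detected in 83.8%, 91.4%, 92.3% and 89.8% of members. The shares of basal-gate cells were 80%, 79.7%, 76.4% and 78.7%, so Krt8 was not particular to members. In each mouse the summed level of Krt14 was below, and that of Krt5 above, the level in basal-gate cells. After the same thinning, Krt5 was detected in 76.7%, 69.4%, 74.9% and 77.7% of members. The shares of basal-gate cells were 76.7%, 79.0%, 83.7% and 84.9%, so the share of members was not higher in any mouse. Krt5 and Krt14 are basal gate genes, and the part of that gate in these shares was not tested.

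**Figure D1:**
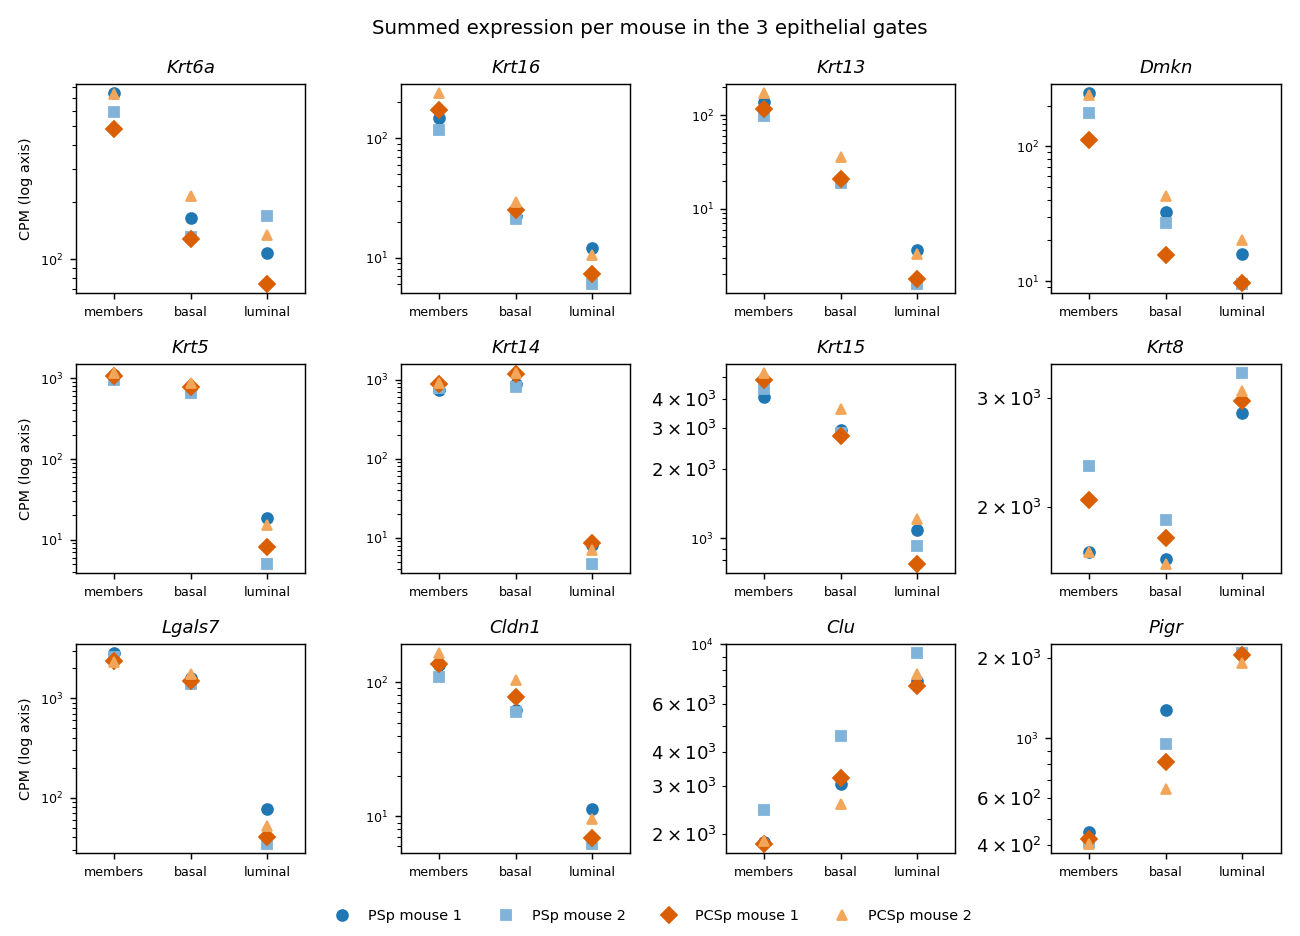
Summed expression in CPM (log axis) of 12 genes in members, basal-gate and luminal-gate cells, with 1 point per mouse. Krt6a, Krt16, Krt13 and Dmkn chose the members; Lgals7 and Cldn1 were highest in members, Krt5 and Krt14 were shared with basal-gate cells, and Clu and Pigr were lowest in members.

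Outside the gate, 25 genes were named for the largest ratio of members to other epithelial cells, and they were of many kinds. Among the 25 with the highest ratio in the mouse where it was lowest, Lgals7 (galectin-7 of stratified epithelium) stood at 2826, 2600, 2345 and 2323 CPM, which was 5.29-fold to 10.9-fold its level in other epithelial cells. The tight junction gene Cldn1 stood at 110 to 164 CPM, 5.19-fold to 7.27-fold higher, and the desmosomal genes Dsc3 and Pkp1 were 3.87-fold to 6.06-fold and 3.49-fold to 5.32-fold higher. Perp, a desmosomal membrane protein, was at 305 to 369 CPM and 3.01-fold to 3.85-fold higher. Krt17, a wound keratin, was 3.61-fold to 6.75-fold higher, and Trim29 was 3.76-fold to 6.59-fold higher. Il33, an alarmin that basal cells also make, was 3.15-fold to 5.17-fold higher. Ndufa4l2, a gene induced by hypoxia, had the highest smallest ratio of all, 6.28-fold to 11.1-fold, at 100, 86.4, 51.0 and 49.9 CPM. Ifi202b, Ifitm1, Calcb, Msn, Anxa8, Igfbp3, Smtn, Amotl1, Ggct, Tpm2, Dennd2c, Gja1, Nectin1 and Pard6g made up the rest of these genes with Krt5 and Krt14. Igfbp3 and Ifitm1 were higher in stromal-gate cells, at means of 889 and 554 CPM, than in members, at 73.6 and 199 CPM. Msn was at a mean of 117 CPM in members, 444 CPM in immune-gate and 265 CPM in stromal-gate cells. The other epithelial cells pooled 1515 basal-gate and 5407 luminal-gate cells. These had to hold fewer than 2 immune and fewer than 2 stromal gate genes. No such limit was set for members, of which 41 met at least 2 immune and 194 at least 2 stromal gate genes. The part of this in the ratios was not tested. Against basal-gate cells alone, the log2 ratio was 0.12 to 0.35 for Dsc3 and 0.65 to 0.83 for Pkp1. It was 0.28 to 0.55 for Perp, 0.31 to 0.97 for Krt17 and 0.036 to 0.45 for Il33. For Lgals7 it was 0.40 to 0.89, for Cldn1 0.67 to 1.12 and for Ndufa4l2 0.82 to 1.57. Krt14 was above basal-gate cells in no mouse, Amotl1 and Gja1 in 3 of 4. With every cell thinned to 3000 UMIs, Il33 was detected in 49.4%, 36.0%, 45.6% and 48.3% of members. The shares of basal-gate cells were 47.9%, 39.1%, 52.5% and 56.8%. The thinned share for Cldn1 was higher in members in each mouse, and that for Lgals7 was higher in both PSp mice and lower in both PCSp mice.

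The genes lowest in members included secretory products of glandular epithelium. Clu (clusterin) was at 1838 to 2454 CPM, 0.287 to 0.298 of its level in other epithelial cells, and Pigr, the receptor that carries immunoglobulin A across glandular epithelium, was at 403 to 449 CPM, 0.215 to 0.249 of it. Sbp, a secreted protein of the prostate, was at 0.0645, 4.47, 0.832 and 0.733 CPM in members and at a mean of 196 CPM in luminal-gate cells. Spink5, Hp, Sftpd, Car2, Piezo2 and Upk1a were also among the 15 genes of lowest ratio. Wfdc2, a secreted antiprotease, was at 877 to 1932 CPM against a mean of 3808 CPM in other epithelial cells. Of 23 luminal and prostate identity genes at 10 CPM or more in either set, 19 were lower in members in all 4 mice and 2 were higher, where 4165 of 8267 genes at that level were lower and 1784 were higher.

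By family, the squamous lists divided. Krt4, a keratin of mucosal stratified epithelium, was at 493 to 609 CPM against a mean of 314 CPM in other epithelial cells. Of all 8267 genes at 10 CPM or more in either set, 1784 were higher and 4165 lower in members in all 4 mice. Of 14 basal keratin and hemidesmosome genes at that level, 12 were higher in all 4 mice. Their median log2 ratio to other epithelial cells was 0.87 (1 CPM added to each level), against -0.13 over all genes. Of 11 desmosome and adherens junction genes, 8 were higher in all 4 mice, and the spinous proteins were higher for 14 of 19, with Sfn (14-3-3 sigma) at 2900 to 3697 CPM. Of 10 cornified envelope genes at that level 6 were higher and 1 was lower in all 4 mice, and of the 44 in the matrices 31 had a UMI in any member. Sprr1a was at 671 to 867 CPM against a mean of 659 CPM in other epithelial cells. The small proline-rich gene Sprr2d was at 32.5 CPM in PCSp mouse 2 and at 0.128 to 0.581 CPM in the other 3 mice. Barrier lipid enzymes were higher for 2 of 14 and lower for 10. Of 30 squamous transcription factor genes, 14 were higher and 11 lower in all 4 mice, with a median log2 ratio of 0.024. Among them Grhl3, a regulator of epidermal barrier formation, was at 6.66 to 12.2 CPM against 1.02 CPM, and Ovol1 was at 50.6 to 74.5 CPM against 21.8 CPM.

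Members differed among themselves along the number of gate genes they met. There were 431 members with 3 gate genes, 323 with 4, 196 with 5 and 106 with 6, and 800 further barcodes without cycling met 2. A further 161 barcodes met the marker rule and were left out by the cycling limit. At the threshold, Krt6a was at a mean of 264 CPM in cells with 2 gate genes and 382 CPM in those with 3, Dsg3 at 17.7 and 38.6 CPM, and Krt13 at 26.7 and 58.1 CPM. These are the values on either side of the threshold and are given without a test. Lgals7 was at 1863 ± 226 CPM (SD, n = 4 mice) at 3 genes and at 3416 ± 556 CPM at 6. Calml3, a calmodulin-like protein of stratified epithelium, was at 16.2 ± 9.18 CPM at 3 genes and at 56.1 ± 35.1 CPM at 6, and the cystatin-like gene Cstdc5 at 105 ± 40.4 and 590 ± 221 CPM. Clu went the other way, from 2728 ± 528 to 1379 ± 265 CPM, as did Pigr, from 652 ± 187 to 233 ± 73.7 CPM. The basal keratin genes Krt5 and Krt15 were also higher at 6 genes than at 3, at 1319 ± 232 against 823 ± 109 CPM and at 5703 ± 876 against 3822 ± 369 CPM. Sprr1a was at 718 ± 156 CPM at 3 genes and 947 ± 494 CPM at 6, higher at 6 in each mouse but PSp mouse 2. In that mouse it was at 826 CPM at 3 genes and 449 CPM at 6, where 14 members met all 6. The axis is made of the gate's own values, so all of this is description. The hemidesmosome collagen Col17a1 was at 132 ± 19.0 CPM at 3 genes, 149 ± 40.5 at 4 and 65.7 ± 12.3 at 6. These genes were named after their values were seen. The median UMI count also differed, from 27063 at 3 genes to 40418 at 6, and its part in these values was not tested.

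**Figure D2:**
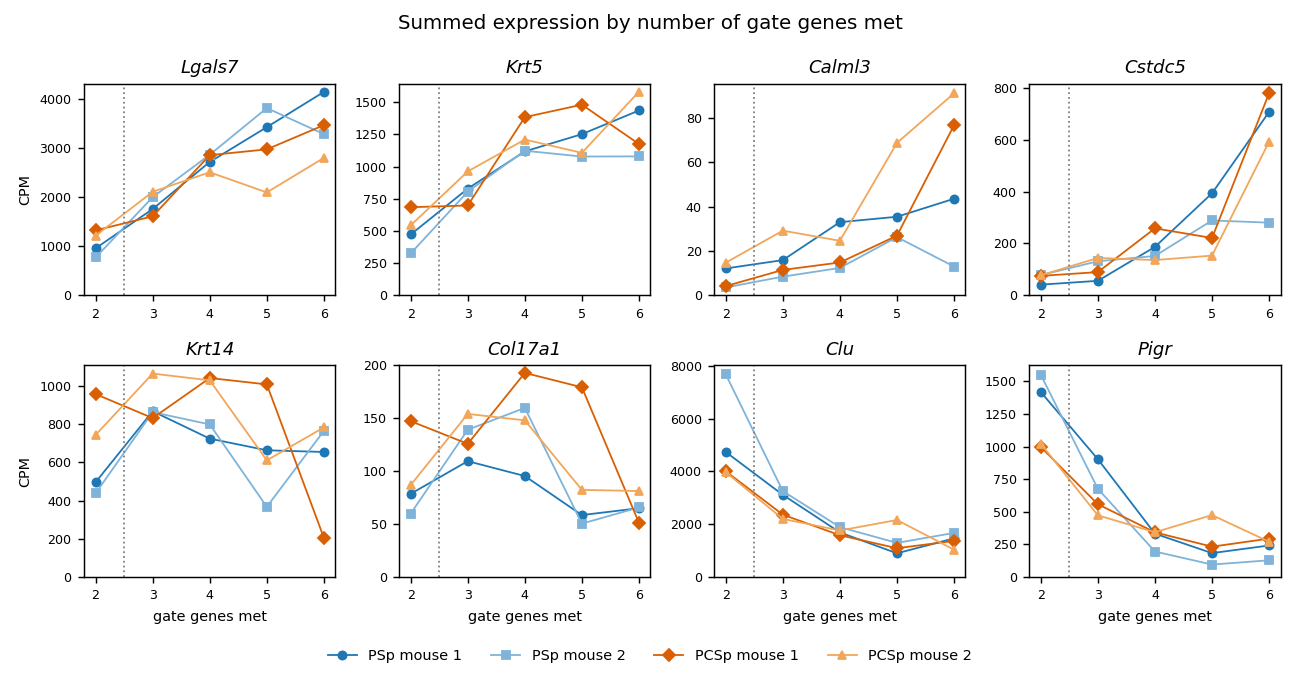
Summed expression in CPM by the number of gate genes met, 1 line per mouse; cells with 2 genes (left of the dotted line) are outside the gate. Lgals7 and Cstdc5 were higher and Clu and Pigr lower with more gate genes met, whereas Krt14 was spread from 205 to 784 CPM over the mice at 6 genes.

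Krt13 split the members in another way. In members with at least 2 Krt13 UMIs, Krt14 was at 900, 791, 1172 and 1139 CPM in the 4 mice, and in the other members at 587, 756, 592 and 581 CPM. Krt15 was at 4949 to 6703 CPM in the former and at 3097 to 3842 CPM in the latter. Krt8 was at 1498 to 2163 CPM and 1877 to 2497 CPM, lower in the Krt13 members of each mouse. In each mouse Krt14 and Krt15 were thus higher in the members with Krt13. The split uses a gate gene, and members without Krt13 had to meet 3 of the other 5, so these values are description only. With every cell thinned to 3000 UMIs, Krt14 was detected in 45.3%, 44.7%, 60.6% and 52.0% of Krt13 members and in 34.7%, 43.6%, 38.6% and 32.6% of the rest.

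The basal keratin gene Krt5, which the squamous gate did not use, was set against immune-gate cells, which should lack it, as a measure of free RNA in the suspension. Immune-gate cells had to hold fewer than 2 basal and fewer than 2 luminal gate genes at 2 UMIs, and Krt5 is a basal gate gene. Barcodes with much epithelial RNA were thus left out of them, and how far this lowered their shares was not tested. With every cell thinned to 3000 UMIs, 76.7%, 69.4%, 74.9% and 77.7% of members had a Krt5 UMI, against 4.18%, 1.46%, 3.75% and 2.41% of immune-gate cells. Unthinned, the shares were 89.7% to 91.6% and 2.43% to 7.79%, at median depths of 31527 and 4674 UMIs. For the gate gene Krt6a, whose excess the gate fixed, the thinned shares were 57.9% to 78.6% of members and 0.937% to 2.31% of immune-gate cells. Members were deep cells, with a median of 31527 UMIs against 12146 in basal-gate and 18339 in luminal-gate cells, and a gate that needs 2 UMIs of several genes favours depth. No member shared its barcode with a member of another library, though 112 barcodes occurred in more than 1 library over all 33061. Between 7 and 13 members per mouse also met at least 2 immune gate genes, and between 34 and 66 met at least 2 stromal gate genes.

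The share of members did not separate the genotypes. They made up 352 of 3412 kept barcodes in PSp mouse 1 (10.3%, exact Clopper-Pearson 95% interval 9.32 to 11.4) and 186 of 3722 in PSp mouse 2 (5.00%, 4.32 to 5.75). They made up 195 of 4884 in PCSp mouse 1 (3.99%, 3.46 to 4.58) and 323 of 3912 in PCSp mouse 2 (8.26%, 7.41 to 9.16). Within a genotype the mice differed by more than between genotypes, and an exact two-sided permutation test gave p = 0.667, where 0.333 is the smallest p that 2 mice against 2 allow. Of epithelial barcodes (members, basal-gate, luminal-gate and cycling epithelial cells), members were 19.6% and 8.98% in PSp and 8.39% and 16% in PCSp mice, also with an exact permutation p of 0.667. The intervals cover counting error only. With every cell thinned to 3000 UMIs before the gate, 22, 8, 13 and 42 members were found, and the direction of the ratio turned (log2 ratio of PCSp to PSp 0.52, against -0.32).

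**Figure D3:**
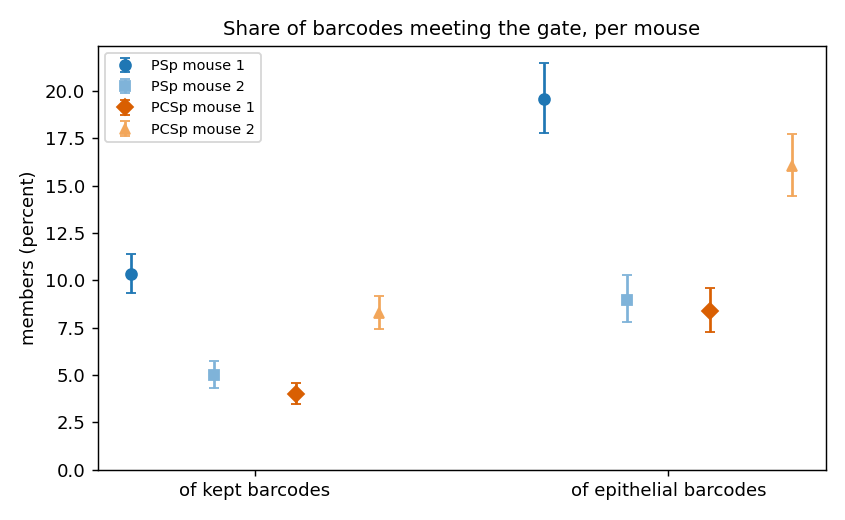
Members as a percentage of kept barcodes (left) and of epithelial barcodes (right), 1 point per mouse with exact 95% intervals for counting error. PSp mouse 1 and PCSp mouse 2 had the higher shares in both, so the genotypes overlapped.

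Between the genotypes, 19 of 34 listed interferon-response genes were lower in the members of PCSp mice, and no other list had more than 2 genes called. Genes called higher included Cym, Gm42031 and Reg3b. The question of the comparison is what Chd1 loss changes in these Spop-mutant tumours after castration. Counts were summed per mouse over its members and tested with edgeR for 12520 genes. At an adjusted p of 0.05, 113 genes were called (0.903% of those tested), 40 higher (0.319%) and 73 lower (0.583%) in PCSp mice, and 1541 were at an unadjusted p under 0.05. The calls moved with the members and the libraries used. They were 37 with at least 4 gate genes required (13 higher and 24 lower). They were 59 without the cycling limit (32 and 27) and 62 without members that held immune or stromal genes (22 and 40). Leaving out a mouse gave 24 higher and 56 lower without PSp mouse 1, 88 and 147 without PSp mouse 2, 116 and 154 without PCSp mouse 1, and 55 and 85 without PCSp mouse 2. In those fits the lone mouse is assumed to vary like the other pair. In summed counts, fewer members with a transcript and less of it per member cannot be told apart. The labels give separate mice, and 1 library stands for each.

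Chd1 itself (chr17:15704967-15772610) was at 98.5 and 81.8 CPM in PSp members and at 57.1 and 48.9 CPM in PCSp members, a log2 fold change of -0.80 ± 0.13 (SE, adjusted p = 0.0457 by edgeR). It did not pass in 5 of the alternatives, among them those leaving out PSp mouse 1 or PCSp mouse 2 (adjusted p 0.117 and 0.123). The log2 fold change was -0.53 in basal-gate and -0.50 in luminal-gate cells, and 0.28 and 0.20 in immune-gate and stromal-gate cells. Reads of a 3' library may lie outside the floxed part, which is not given in the sources used here, so the level does not check the deletion. Its relative Chd2 was at 60.7, 57.8, 77.4 and 75.3 CPM (adjusted p = 0.246), and Spop and Srebf2 had adjusted p values of 0.464 and 0.973.

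The interferon response list was the only list with more than 2 members called. Type I and type III interferons act through receptors that activate Stat2 and Irf9, among others, which turn on antiviral genes. Of the 34 listed genes tested, 19 were lower in PCSp members at an adjusted p of 0.05 and none was higher. A further 14 of the other 15 were lower at an unadjusted p under 0.05, and all 34 fold changes were negative, with a median log2 fold change of -1.52, against -0.0040 over all genes. Ifit3, an antiviral RNA-binding protein (chr19:34583531-34588731), was at 304 and 351 CPM in PSp and 60.4 and 40.2 CPM in PCSp members, a log2 fold change of -2.73 ± 0.19 (adjusted p = 0.00310). Both PCSp mice lay far below both PSp mice.
The ubiquitin-like modifier Isg15 (chr4:156199424-156200818) was at 817 and 961 against 274 and 130 CPM, a log2 fold change of -2.17 ± 0.30 (adjusted p = 0.0248). Ifi27l2a, a mitochondrial interferon-induced protein, was at 787 and 972 against 208 and 98.7 CPM (-2.55 ± 0.31, adjusted p = 0.0152). Bst2 (tetherin) was at 356 and 442 against 161 and 85.5 CPM (-1.73 ± 0.26, adjusted p = 0.0351). Isg15, Ifit1 and Iigp1 did not pass with at least 4 gate genes or without the cycling limit, Cmpk2 not with the former and Trim30a not with the latter, and Iigp1 not with equal thinned cells. Ifit3, Ifit3b, Ifi27l2a and Slfn2 passed in every alternative run. The interferon genes lay lower in PCSp mouse 2 than in PCSp mouse 1 throughout these examples. Without PCSp mouse 1 the list's median was -1.92, and without PCSp mouse 2 it was -1.17. Cmpk2, Iigp1 and Ifit1 were called too, at 53.7 and 32.9 against 9.63 and 7.85 CPM, at 34.3 and 31.8 against 10.1 and 5.34 CPM, and at 345 and 231 against 87.1 and 49.0 CPM. Slfn2, an interferon-induced gene of immune cells and epithelium, was at 163 and 138 against 59.4 and 52.4 CPM (-1.46 ± 0.12, adjusted p = 0.00485). Trim30a, an interferon-induced ring finger protein, was at 58.5 and 46.7 against 13.3 and 5.65 CPM (-2.52 ± 0.31, adjusted p = 0.0176). Of the 34, 28 were lower in members than in other epithelial cells in all 4 mice, where 4165 of 8267 genes at 10 CPM or more were. The summed level of the list was 5605 and 5652 CPM in PSp members, against 4036 and 4241 CPM in PSp basal-gate cells. It was 2199 and 1311 CPM in PCSp members, against 2780 and 1356 CPM in PCSp basal-gate cells. Luminal-gate cells held 4052 to 7640 CPM over the 4 mice. The pathway's factors Stat2 and Irf9, named after their values were seen, did not pass, with adjusted p values of 0.0990 and 0.338.

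**Figure D4:**
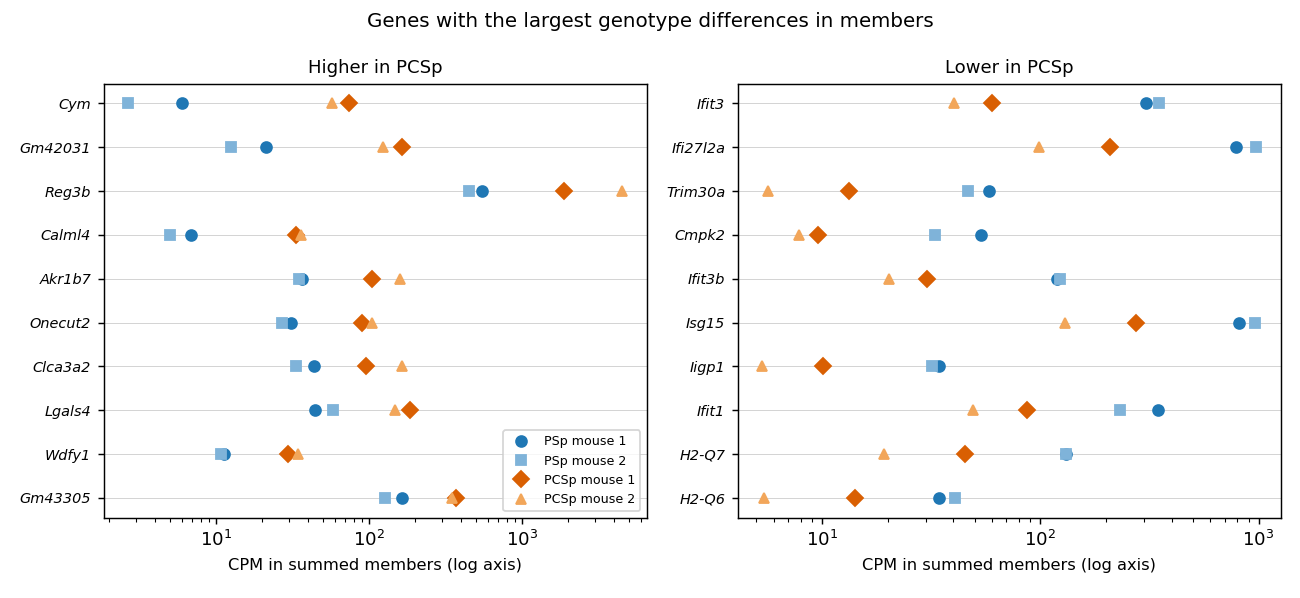
CPM per mouse (log axis) in summed members for the 10 called genes with the largest rise and the 10 with the largest fall in PCSp mice, among those at a mean of 20 CPM or more. Genes were picked among those whose genotypes did not overlap, so the separation shown was fixed by the choice; Reg3b spans 450 to 4507 CPM.

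Ifit3 and Ifit3b are near-copies that lie next to each other on chromosome 19, so the reads of one may have been given to the other and their levels are uncertain singly. Their promoters, with that of Trim30a, are shown because these are the 3 called interferon genes with the largest fall that hold the interferon-stimulated response element, matched here as GAAA, any 2 bases and GAAA again on either strand, in capitals.
Ifit3 promoter, chr19:34583279-34583528, plus strand: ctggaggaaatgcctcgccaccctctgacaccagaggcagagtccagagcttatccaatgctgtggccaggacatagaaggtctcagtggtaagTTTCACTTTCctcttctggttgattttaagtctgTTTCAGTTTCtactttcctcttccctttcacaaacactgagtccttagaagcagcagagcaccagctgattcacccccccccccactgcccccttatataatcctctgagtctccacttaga
Ifit3b promoter, chr19:34607707-34607956, plus strand: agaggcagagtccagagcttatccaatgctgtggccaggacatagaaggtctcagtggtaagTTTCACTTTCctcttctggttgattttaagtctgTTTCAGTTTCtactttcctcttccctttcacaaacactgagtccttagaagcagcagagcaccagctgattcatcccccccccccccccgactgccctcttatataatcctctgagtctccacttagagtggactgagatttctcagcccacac
Trim30a promoter, chr7:104465194-104465443, minus strand: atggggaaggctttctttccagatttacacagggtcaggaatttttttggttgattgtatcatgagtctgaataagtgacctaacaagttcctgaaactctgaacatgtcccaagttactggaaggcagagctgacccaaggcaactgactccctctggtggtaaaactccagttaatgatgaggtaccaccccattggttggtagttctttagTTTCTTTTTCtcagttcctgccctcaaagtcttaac
Of the 19 called interferon genes, 14 had a promoter in the RefSeq table and 7 of these (50%) held the motif, against 3.46% of all 27025 genes with a promoter. Of all 55 genes called lower with a promoter, 17 (30.9%) held it, and of 29 called higher 3 (10.3%). No promoter held this motif in overlap with TGANTCA. These are matches of letters, and no binding was measured.

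The interferon genes were carried by many members and not by all. Ifit3 was detected in 42.9% and 57.5% of PSp members and in 27.2% and 12.4% of PCSp members at full depth, and in 23%, 26.3%, 11.3% and 4.33% of them after thinning to 3000 UMIs. Its counts were uneven: the 10% of members with most Ifit3 held 81.6% and 72.7% of its UMIs in the PSp pair and 84.3% and 98.2% in the PCSp pair, and 1 cell of PCSp mouse 2 held 53.9%. Isg15 was broader, with 81.5%, 87.1%, 71.3% and 47.4% of members having a UMI. The interferons themselves were in very few cells. Ifnb1 was in 4 members of the PSp mice with 70 UMIs in all and Ifnl2 in the same 4 with 102 UMIs. Neither had a UMI in the 518 PCSp members of both mice together, and their absence from these counts sets no limit on cells that express the gene. Both genes were called lower in members, but these calls rest on 3 cells of PSp mouse 1 and 1 cell of PSp mouse 2. Both genes were named after their values were seen.

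Antigen presentation genes lay in the same direction at smaller size. Of 16 genes of MHC class I presentation, 1 (H2-Q7) was called lower and none higher, and 13 were lower at an unadjusted p under 0.05, with a median log2 fold change of -0.80. H2-Q7, which lies among near-copies such as H2-Q6 and is uncertain for that reason, was at 132 and 131 against 45.4 and 19.3 CPM (-2.06 ± 0.32, adjusted p = 0.0364). H2-K1, a classical class I chain, was at 1219 and 1403 against 840 and 552 CPM (adjusted p = 0.0738), and did not pass. H2-Q7 did not pass with at least 4 gate genes, without the cycling limit or without members holding immune or stromal genes. Nor did it pass without PSp mouse 1, where its log2 fold change was -2.07.

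The interferon list was also compared in the other cell sets. Its median log2 fold change was -0.90 in basal-gate, -0.61 in luminal-gate, -0.79 in immune-gate and -0.12 in stromal-gate cells. The comparisons share the mice and not the cells. No gene was called in basal-gate, luminal-gate or stromal-gate cells with edgeR (1267, 1255 and 606 at an unadjusted p under 0.05), and 14 were called in immune-gate cells. Other alternatives were not run in these sets. Whether the genotype difference of members exceeded that of basal-gate cells was tested directly over 13067 genes, where 45 genes were called (0.344%), 29 higher and 16 lower, with 973 at an unadjusted p under 0.05. The interferon list held 7 of the 16. Isg15 fell by a further 1.11 ± 0.09 on the log2 scale in members (adjusted p = 4.3e-04), Ifi27l2a by 1.08 ± 0.12 (adjusted p = 0.00355) and Bst2 by 0.84 ± 0.09 (adjusted p = 0.00339). With every cell thinned to 3000 UMIs, 7 genes were called in all and these 3 did not pass. With at least 4 gate genes, 9 genes were called.

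**Figure D5:**
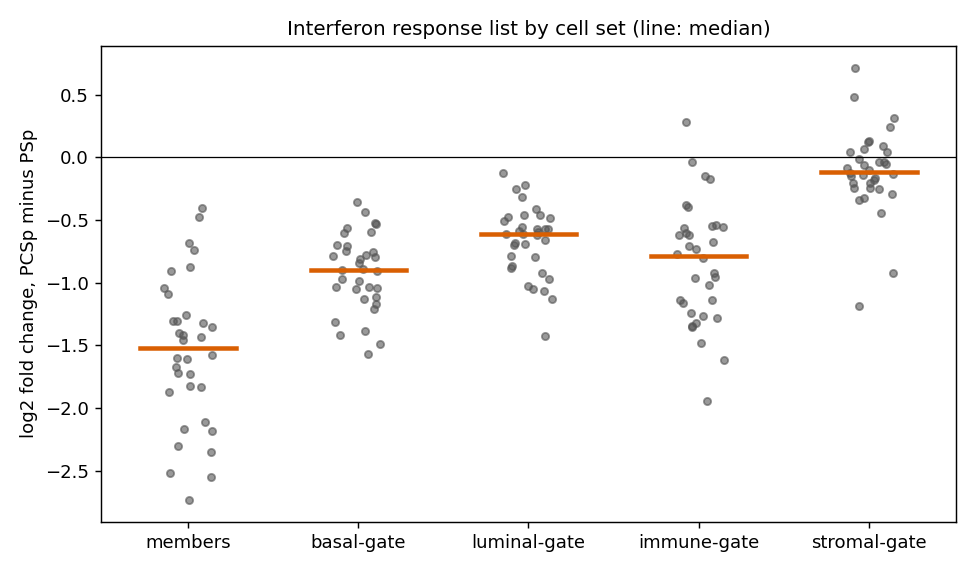
Log2 fold change of PCSp against PSp mice for each gene of the interferon response list in 5 cell sets, with the median as a line. All members' values lie below 0, with a median of -1.52, and the stromal-gate median is -0.12.

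Markers of other cell types were low in members. The summed level of 21 immune marker genes in members was 60.7 and 149 CPM in PSp and 69.7 and 103 CPM in PCSp mice, so the genotypes overlapped, against 20655 CPM or more in immune-gate cells. Without members that met 2 immune or stromal genes, the interferon median was -1.39. The summed level of 14 fibroblast and endothelial markers was 288 and 439 CPM in PSp and 763 and 541 CPM in PCSp members. It was higher in both PCSp mice, mostly through Dcn at 175, 301, 634 and 375 CPM, which basal-gate cells also held at a mean of 700 CPM, while Col1a1 was at 0.775 to 3.56 CPM. Its part in the genes higher in PCSp mice was not tested. Lyve1 (lymphatic endothelium) was called higher at 3.21 and 1.88 against 0.129 and 0.128 CPM, and Igkc (an antibody chain) at 19.5 and 23.9 against 9.49 and 8.30 CPM, both named after their values were seen.

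Other genes were lower in PCSp members outside the interferon list. Arg1, which breaks down arginine, was at 486 and 351 against 167 and 106 CPM, a log2 fold change of -1.64 ± 0.22 (adjusted p = 0.0244), and was named after its values were seen. In immune-gate and stromal-gate cells its log2 fold change was of the other sign, 1.34 and 1.72, and was not called there. Among 27 hypoxia and glycolysis genes, 2 were called lower and 16 were lower at an unadjusted p under 0.05, with a median of -0.41. The glycolytic enzymes Aldoa and Eno1 were at 955 and 961 against 671 and 678 CPM (-0.53 ± 0.08) and at 407 and 423 against 284 and 290 CPM (-0.56 ± 0.09), with adjusted p values of 0.0417 and 0.0467. Aldoa did not pass without PSp mouse 1, PCSp mouse 1 or PCSp mouse 2 (adjusted p 0.0618, 0.0879 and 0.113), and Eno1 not without any 1 of the 4 mice (0.0580 to 0.144). Gapdh had an adjusted p of 0.0749. Ndufa4l2, high in members and named here after its values were seen, was called lower too, at 100 and 86.4 against 51.0 and 49.9 CPM (-0.91 ± 0.12, adjusted p = 0.0189). Wfdc2, a secreted antiprotease of glandular epithelium, was at 1679 and 1932 against 1063 and 877 CPM (-0.92 ± 0.12, adjusted p = 0.0205). The surface protein gene Ly6a was at 1518 and 1611 against 916 and 1023 CPM (-0.71 ± 0.09, adjusted p = 0.0223).

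Among the genes higher in PCSp members, those with the largest change are given first. Cym, the gene of the milk-clotting protease chymosin (chr3:107211293-107221732), was at 6 and 2.68 CPM in PSp and 74.5 and 57.2 CPM in PCSp members, a log2 fold change of 3.79 ± 0.28 (adjusted p = 0.00310). Calml4, a calmodulin-like protein of the brush border, was at 6.84 and 4.98 against 33.4 and 35.9 CPM (2.49 ± 0.17). The transcription factor Onecut2 was at 31.1 and 26.9 against 90.3 and 105 CPM (1.72 ± 0.13). Lgals4, galectin-4 of the gut lining, was at 44.7 and 58.6 against 184 and 149 CPM (1.67 ± 0.17). Akr1b7, an aldose reductase-like enzyme, was at 36.3 and 34.8 against 105 and 159 CPM (1.87 ± 0.19), and Clca3a2 at 43.9 and 33.4 against 95.8 and 164 CPM (1.72 ± 0.25). All 6 had adjusted p values from 0.00310 to 0.0295. Akr1b7, Calml4, Lgals4 and Onecut2 did not pass with at least 4 gate genes, Cym and Akr1b7 not without the cycling limit, and Onecut2 not with equal thinned cells. Clca3a2 did not pass without PSp mouse 1 (adjusted p = 0.0618), without members holding immune or stromal genes, or with equal cells per class of gate genes met. The antimicrobial lectin Reg3b was at 552 and 450 against 1887 and 4507 CPM (2.65 ± 0.36, adjusted p = 0.0234), and did not pass in 5 of the alternatives. These were those without PSp mouse 1 (adjusted p = 0.0628), with at least 4 gate genes, without the cycling limit, without the highest doublet scores and without members holding immune or stromal genes. At 3000 UMIs, Reg3b was in 3.69%, 3.76%, 11.3% and 20.7% of members and in 6.93%, 5.83%, 17.2% and 29.7% of immune-gate cells, so its share in members was no higher than the background. Upk3a, a urothelial plaque protein, was called too (adjusted p = 0.00768), but 75 of its 96 UMIs in PCSp mouse 2 came from 1 member.

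The 6 genes differed in how many members held them. Clca3a2 had a UMI in 93 of 195 and 177 of 323 PCSp members, where the other 5 had one in 6.19% to 24.1%. In PCSp mouse 1, the 627 Cym UMIs came from 17 of 195 members, and in PCSp mouse 2 the 546 came from 20 of 323, while 6 of 352 and 5 of 186 PSp members had any. Members with at least 2 UMIs of at least 3 of these 6 genes (Reg3b aside) numbered 9 and 7 in the PSp tumours and 14 and 30 in the PCSp tumours. Those were 2.56% (exact 95% interval 1.18 to 4.80), 3.76% (1.53 to 7.60), 7.18% (3.98 to 11.8) and 9.29% (6.35 to 13) of members, and they held 61.7% to 81.0% of the UMIs of the 6 genes. The genes were chosen for their genotype difference, so these counts describe where the difference sits and are no further test. Such cells are deep by construction, since the rule asks for 2 UMIs of 3 genes. Their median depth was 110963, 83546, 94164 and 59634 UMIs, against 34746, 34865, 31897 and 22741 for all members of the same mice. Among them 0, 3, 1 and 3 were in the part of the library with the highest doublet scores.

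In basal-gate cells none of these genes was called. Cym was at 29.2, 21.4, 33.3 and 37.8 CPM there and Lgals4 at 232, 207, 243 and 190 CPM. PSp members lay below the basal-gate cells of the same mice for both genes. In PCSp mice, members lay above them for Cym and below them for Lgals4. The difference of the differences was 3.33 ± 0.26 for Cym (adjusted p = 4.0e-04), 2.14 ± 0.18 for Calml4 (adjusted p = 4.4e-04), 1.89 ± 0.12 for Akr1b7 (adjusted p = 1.6e-04), 1.68 ± 0.15 for Lgals4 (adjusted p = 8.1e-04) and 1.67 ± 0.10 for Clca3a2 (adjusted p = 1.1e-04). Cells with 3 of the 6 genes were 8.85%, 7.01%, 5.36% and 7.19% of basal-gate cells and 9.86%, 4.14%, 10.1% and 11.6% of luminal-gate cells. With at least 4 gate genes, Akr1b7, Calml4 and Lgals4 no longer passed, and with thinned cells Cym, Calml4 and Lgals4 did not. Fgfbp1, a carrier of fibroblast growth factors, and the chemokine Cxcl1 differed the other way: relative to basal-gate cells they fell by 1.06 ± 0.11 and 1.01 ± 0.10 in members, and their own log2 fold changes in members were -0.45 and -0.08, neither called.

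Some called genes had fold changes of the same sign in every set. The non-coding Gm42031 (chr8:85125872-85132289) was at 21.4 and 12.6 against 164 and 124 CPM in members, a log2 fold change of 3.02 ± 0.24, and of 2.66, 2.70, 2.88 and 2.47 in basal-gate, luminal-gate, immune-gate and stromal-gate cells. Wdfy1, an adaptor of endosomal Toll-like receptor signalling, was at 11.3 and 10.7 against 29.6 and 34.6 CPM, with 1.52 ± 0.15 in members and 1.65, 1.31, 0.73 and 0.90 in the other sets. The mitochondrial gene mt-Nd3 fell by 0.94 ± 0.15 in members (adjusted p = 0.0440), where it was at 647 and 825 against 435 and 346 CPM, and its log2 fold change was -1.01, -0.96, -0.81 and -1.01 in the other sets. Of 13 mitochondrially encoded genes 2 were called lower in members (mt-Nd3 and mt-Co3), with a median of -0.34, and the median was -0.44 to -0.34 in the other sets. Neither passed without PCSp mouse 2 (adjusted p 0.0548 and 0.0533). The non-coding Gm43305 was at 164 and 128 against 371 and 349 CPM in members (1.28 ± 0.13, adjusted p = 0.00768). Of the differences between sets, only that of members and basal-gate cells was tested, and its values for these genes are not given here.

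Cholesterol synthesis is named in the series' title. Of its 21 listed genes, 6 were higher and 1 was lower in PCSp members at an unadjusted p under 0.05, with a median log2 fold change of 0.23. Hmgcs1, an early enzyme of the pathway, was at 41.7 and 40.3 against 62.3 and 54.1 CPM (adjusted p = 0.155) and Msmo1, a later one, at 48.1 and 37.8 against 64.3 and 59.1 CPM (adjusted p = 0.197). None of the 22 genes of SREBP control and cholesterol uptake was called with edgeR, and 1 was at an unadjusted p under 0.05, lower.

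In the squamous lists no genotype difference passed the test as run on all members, but several passed under alternatives. No gene was called with edgeR among 15 basal keratin and hemidesmosome genes, 11 wound and suprabasal keratins, 25 spinous proteins, 11 desmosome genes, 19 cornified envelope genes, 18 kallikreins and inhibitors, 37 transcription factors and 22 barrier lipid enzymes. At an unadjusted p under 0.05, 7 of the basal genes were higher and 1 was lower, with a median of 0.22. That median turned to -0.099 without members holding immune or stromal genes. The linker protein Dst was at 165 and 199 against 340 and 259 CPM (0.70 ± 0.15, adjusted p = 0.106) and Krt23 at 126 and 159 against 194 and 217 CPM (adjusted p = 0.176). Among transcription factors, Fosl1, an AP-1 subunit, was at 80.7 and 81.8 against 113 and 110 CPM and the Notch target Hes1 at 149 and 125 against 95.6 and 74.3 CPM (adjusted p 0.125 and 0.0772). Of the desmosome genes, desmoplakin (Dsp) was at 568 and 454 against 619 and 650 CPM (adjusted p = 0.379). The epidermal growth factor receptor ligand Epgn was at 4.65 and 4.6 against 11.2 and 9.42 CPM (1.13 ± 0.20, adjusted p = 0.0573), and Hbegf, another ligand, at 1135 and 1188 against 1438 and 1387 CPM (adjusted p = 0.267). The secreted antiproteases Wfdc12 and Slpi were at 14.3 and 5.36 against 36.1 and 44.7 CPM (1.94 ± 0.34, adjusted p = 0.0516) and at 12.2 and 23.2 against 39.6 and 54.1 CPM (adjusted p = 0.0809). Wfdc12 passed in 9 of the alternatives, among them those leaving out any 1 mouse, Hes1 in 6, and Slpi and Dst in 5 each. Hes1, Slpi and Dst each passed with DESeq2. Of 19 genes of matrix proteolysis and invasion, Timp1, an inhibitor of matrix metalloproteases, was called higher, at 8.91 and 10.2 against 20.4 and 17.8 CPM (0.99 ± 0.17, adjusted p = 0.0467), and did not pass without PSp mouse 1 or without PCSp mouse 1 (adjusted p 0.143 and 0.0750). A p above the threshold does not show that the other genes were equal between genotypes.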

How the data were processed

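Single-cell RNA of 4 prostate tumours, 1 per mouse, was measured. The deposited values are UMI counts, whole and not normalized. The submitters' processing notes name Cell Ranger 6.1.2 and mm10 for them. Of the gene IDs, 32158 of 32285 were found in GENCODE M21 (GRCm38), the source of gene positions. The smallest barcode held 500 UMIs. Cell-calling settings are not given in the sources used here.

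The members, gates and gene lists were chosen with earlier results of these data known. A barcode was kept with at least 3000 UMIs and at most 20% mitochondrial UMIs. Basal-gate and luminal-gate cells met at least 3 gate genes at 2 UMIs, no members among them, with fewer than 2 immune and 2 stromal gate genes. Doublets stayed in the main values, and an alternative left out the highest Scrublet scores (0.8% per 1000 barcodes, scanpy 1.11.5). Each mouse's summed counts entered edgeR 4.0.16's quasi-likelihood test (R 4.3.3, TMM, filterByExpr), two-sided, with Benjamini-Hochberg adjustment over all genes tested and a threshold of 0.05. Over the mice the fitted spread (biological coefficient of variation) came to 12.7%, and the degrees of freedom were 2 residual and 5.72 prior. The member and basal-gate effects were compared by an interaction term. The fit was also run on simulated data, and what that run gave is not reported here. CPM values are shares of the summed counts, not adjusted for length, so levels are compared within a gene. The named genes are Chd1, Chd2, Spop, Srebf2, the 10 largest and 10 smallest fold changes among called genes at 20 CPM or more that did not overlap, 5 per direction of the interaction, 3 per list and, for levels, 25 highest and 15 lowest ratios at 50 CPM or more. Others are said to be chosen after their values were seen. The alternatives were DESeq2 1.42.0, RLE scaling, no filter, each mouse left out, stricter and looser gates, thinning, equal cells per class of gate genes (added after seeing the data) and members without doublets or other types' genes. Some items that these rules cover are not reported here.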

Additional observations from a re-analysis of the deposited data

Results flagged for a closer look

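In these genes the genotype effect differed between members and basal-gate cells by the interaction test of edgeR, for the 5 genes per direction with the smallest p at a mean of 20 CPM or more. The difference of the log2 fold changes was 1.67 for Clca3a2, 1.89 for Akr1b7, 3.33 for Cym, 2.14 for Calml4 and 1.68 for Lgals4, all with a higher PCSp effect in members. It was -1.11 for Isg15, -1.01 for Cxcl1, -1.06 for Fgfbp1, -0.84 for Bst2 and -1.08 for Ifi27l2a. In the counts thinned to 3000 UMIs, 8 of these 10 were not called. Leaving out any 1 mouse kept all 10 past the threshold.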

How the results depend on the processing

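Calls higher in PCSp members numbered 40 and became 76 with DESeq2, 331 with no filter on low counts, 13 with at least 4 gate genes, 22 without members holding immune or stromal genes and 13 with equal cells thinned to 3000 UMIs. Calls lower numbered 73 and became 131, 401, 24, 40 and 40 under the same settings, and 27 without the cycling limit. Leaving out 1 mouse gave 24 to 116 higher and 56 to 154 lower. Interaction calls numbered 45 and became 23 with DESeq2, 289 with no filter, 9 with at least 4 gate genes and 7 with thinned cells, and 34 to 173 with 1 mouse left out. The cause of these shifts was not tested. Of 31 named called genes, at most 19 of those with a value were lost under any 1 alternative (at least 4 gate genes) and none reversed. With equal cells per class of gate genes met, 33 of the 40 and 71 of the 73 calls remained. The log2 ratio of the share of kept barcodes was -0.32, became 0.52 with the gate after thinning, and was -0.85 to 0.20 with 1 mouse left out. For epithelial barcodes it was -0.19, became 0.62, and was -0.75 to 0.37. The cholesterol median turned to -0.089 without the cycling limit, and the basal keratin median to -0.099 without members holding immune or stromal genes. The interferon median was between -1.92 and -1.17 over all alternatives. No paired analysis was possible because the replicate numbers only follow the accession order. With 2 mice a genotype, no exact test of a share can pass the threshold.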
